A study of Mus musculus with 24 samples.

Results

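The RNA of the 4 mouse eIF2 kinases and of 2 proteins that act on one of them was followed in whole spinal cord across 6 genotypes. The kinases were Eif2ak1 (HRI), Eif2ak2 (PKR), Eif2ak3 (PERK) and Eif2ak4 (GCN2), and the regulators were Gcn1l1 (GCN1) and Impact. These 6 genes were taken by symbol from the 38924 genes in the files, and all 6 passed the filter on low counts, which left 17409 genes for testing. The choice used no measured value of these genes, but it was made with earlier results of these data known.

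Poly(A) RNA was sequenced from the spinal cords of 24 mice aged 8 weeks, given by the labels the strain background B6J;CASTxB6.129. Each mouse had 2, 1 or 0 intact copies of Gcn2, the gene now called Eif2ak4, which are written Gcn2+/+, Gcn2+/- and Gcn2-/- below. Each mouse also carried either 2 wild-type copies of Gars, which encodes glycyl-tRNA synthetase, or 1 wild-type copy and 1 copy with the P278KY change, called mutant Gars below. Gcn2+/+ mice numbered 4 with wild-type and 4 with mutant Gars, Gcn2+/- mice likewise 4 and 4, and Gcn2-/- mice 3 and 5. The labels do not say which part of Eif2ak4 the targeted allele lacks or from which strain it came, and the series' own design text names only the 4 genotypes without Gcn2+/- mice. No promoter or Cre driver is named for the loss of Gcn2. Nothing in the labels states in words that each library is a separate mouse, so p-values measure the spread between these libraries.

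The eIF2 kinases each sense a different stress and phosphorylate the same site of eIF2alpha, which slows general translation and favours the translation of ATF4. GCN2 responds to uncharged tRNA and to stalled ribosomes, HRI to haem shortage and mitochondrial stress, PKR to double-stranded RNA and PERK to unfolded protein in the endoplasmic reticulum. GCN1 is a ribosome-bound cofactor that GCN2 needs for activation by amino acid shortage, and IMPACT, which is abundant in neurons, competes with GCN2 for GCN1.

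Start-site windows were available in RefSeq for 5 of the 6 genes (GRCm38.p6), and those of 3 kinases are shown. The printed stretch runs from 250 bases before to 30 bases after the annotated start, 5′ to 3′ on the gene's strand. Capitals mark the GC box GGGCGG, here in its reverse complement, in the first window of Eif2ak4 at chr2:118388367-118388646 on the plus strand, the interferon-stimulated response element GAAANNGAAA in Eif2ak2 at chr17:78882543-78882822 on the minus strand, and the CCAAT box on either strand in Eif2ak3 at chr6:70844265-70844544 on the plus strand.
Eif2ak4: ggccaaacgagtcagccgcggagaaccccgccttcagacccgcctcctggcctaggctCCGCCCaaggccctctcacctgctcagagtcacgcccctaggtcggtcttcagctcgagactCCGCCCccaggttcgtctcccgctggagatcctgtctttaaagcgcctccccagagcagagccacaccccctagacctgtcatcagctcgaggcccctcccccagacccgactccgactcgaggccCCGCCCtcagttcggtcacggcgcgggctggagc
Eif2ak2: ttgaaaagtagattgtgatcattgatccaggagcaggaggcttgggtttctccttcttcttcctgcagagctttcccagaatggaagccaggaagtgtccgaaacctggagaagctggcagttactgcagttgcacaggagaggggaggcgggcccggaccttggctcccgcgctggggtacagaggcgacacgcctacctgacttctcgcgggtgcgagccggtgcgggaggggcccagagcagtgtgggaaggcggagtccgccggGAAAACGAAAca
Eif2ak3: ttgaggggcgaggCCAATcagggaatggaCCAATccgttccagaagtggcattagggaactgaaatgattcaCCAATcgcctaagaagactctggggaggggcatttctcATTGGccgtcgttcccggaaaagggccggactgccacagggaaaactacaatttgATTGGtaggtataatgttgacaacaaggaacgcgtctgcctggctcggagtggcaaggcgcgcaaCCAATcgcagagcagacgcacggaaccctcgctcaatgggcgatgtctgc

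Each window was searched over 300 bases on both strands for 6 motifs, and the same search was run on all 32851 windows in the RefSeq table. The first Eif2ak4 window held 3 GC boxes, all on the minus strand, and 67.3% G and C, against a median of 52.7% over all windows. Its second window, at a later annotated start, held 57.3% G and C and none of the 6 motifs. At least 1 GC box was present in 35.7% of all windows. Eif2ak2, an interferon-induced gene, had the matched letters GAAAACGAAA starting at position 19 after the start, a motif present in 3.44% of all windows. Eif2ak3 held 6 CCAAT boxes, 4 on the plus and 2 on the minus strand, and 0.0791% of all windows held at least 6. The Eif2ak1 window had 1 CCAAT box and 3 GC boxes, and that of Gcn1l1 had 2 GC boxes and 71.3% G and C. GC boxes were thus not particular to Eif2ak4. None of the windows of these 5 genes held the C/EBP-ATF element TGATGCAA that ATF4 can bind, which was present in 0.895% of all windows. The cyclic AMP response element TGACGTCA (1.79% of all windows) and the endoplasmic reticulum stress element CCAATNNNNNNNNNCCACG (0.119%) had no match in them either. The CCAAT box is also the start of the stress element, so the searches overlap, and a match describes these letters only.

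The libraries held 19.7 to 32.4 M counts (M, mega). Values below are CPM, counts relative to the library total, TMM-scaled, with SDs over libraries, unless TPM is named. Tests are edgeR's quasi-likelihood F test with Benjamini-Hochberg adjustment over all 17409 genes, with the threshold for a call at 0.05. Neuronal, astrocyte and oligodendrocyte markers were high in every library, with summed levels of at least 4558 CPM for 10 neuronal genes. In 5 libraries the mean log2 CPM of 9 Schwann cell and nerve root genes exceeded 3 and reached 5.81, while the other 19 libraries ran from 0.285 to 2.07. These were 2 of the 4 Gcn2+/+ mice with mutant Gars, 2 of the 4 Gcn2+/- mice with wild-type Gars and 1 of the 4 Gcn2+/- mice with mutant Gars, and no Gcn2-/- library was among them.

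Eif2ak4, which spans chr2:118388618-118475234 on the plus strand of GRCm38, was lower with each intact copy lost, and RNA remained in every Gcn2-/- library. In Gcn2+/+ mice with wild-type Gars the 4 libraries measured 34.36, 31.50, 29.96 and 28.85 CPM, and with mutant Gars 33.13, 32.33, 32.02 and 30.70. Gcn2+/- mice measured 21.52, 22.43, 23.11 and 23.58 CPM with wild-type Gars and 23.62, 20.39, 22.75 and 22.98 with mutant Gars. Gcn2-/- mice measured 11.41, 15.01 and 14.35 CPM with wild-type Gars and 12.99, 14.30, 11.67, 14.27 and 11.78 with mutant Gars. No library of one Gcn2 genotype reached into the range of another, whereas the Gars genotypes overlapped within each Gcn2 genotype. Complete separation of 8 from 8 libraries was found in 0.236% of all genes between Gcn2-/- and Gcn2+/+, in 0.023% between Gcn2+/- and Gcn2+/+ and in 0.046% between Gcn2-/- and Gcn2+/-.

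**Figure D1:**
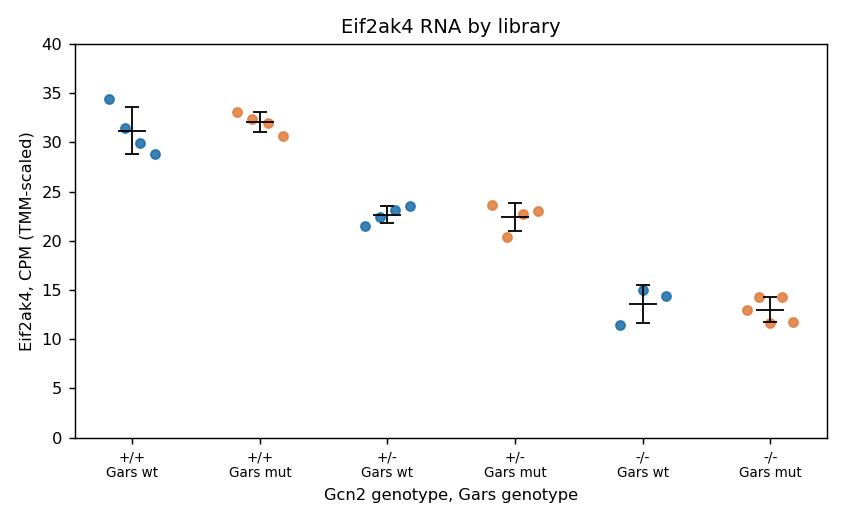
Eif2ak4 RNA (CPM, linear axis from 0) in each library, by Gcn2 and Gars genotype, with points for libraries and bars for mean ± SD (n = 3 to 5). The Gcn2+/+ libraries lie at 28.85 or above, the Gcn2+/- libraries between 20.39 and 23.62, and the Gcn2-/- libraries at 15.01 or below.

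The decline was near linear in copy number. The means over both Gars genotypes were 31.61 ± 1.76 CPM with 2 intact copies, 22.55 ± 1.10 with 1 and 13.22 ± 1.44 with 0 (SD, n = 8 each). Mice with 1 copy therefore kept 71.3% of the RNA (SE 1.87) and mice with none kept 41.8% (SE 1.81). The first lost copy removed 9.06 CPM and the second 9.33, and the 1-copy mean lay 0.134 CPM (SE 0.560) above the midpoint of the ends, 22.41, while the geometric mean of the ends was 20.44. Whether the RNA that remained in Gcn2-/- mice could encode any part of GCN2 was not tested, and protein and kinase activity were not measured here.

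The fall held in each test. Across both Gars genotypes, Eif2ak4 was lower in Gcn2-/- than in Gcn2+/+ mice by a log2 fold change of -1.25 (SE 0.06, 95% interval -1.38 to -1.12, adjusted p = 7.7e-11), the smallest p of all genes. Gcn2+/- mice differed from Gcn2+/+ mice by -0.48 (SE 0.06, adjusted p = 0.0012), and Eif2ak4 was the 1 gene called of 17409. From Gcn2+/- to Gcn2-/- the change was -0.77 (SE 0.06, adjusted p = 3e-07). For background, 0.62%, 0.00574% and 0.0345% of all genes were called in these 3 comparisons, in the order given. Without the 5 libraries of high Schwann cell signal the Gcn2+/- difference was -0.49, but its adjusted p rose to 0.14 in edgeR with 19 libraries. In that smaller fit 0 of 17434 genes were called, and 819 had an unadjusted p below 0.05.

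The Gars genotype made no detectable difference to the dose of Eif2ak4. The log2 fold change between Gcn2-/- and Gcn2+/+ was -1.21 (SE 0.10, adjusted p = 7.3e-07) with wild-type Gars, where 0.0287% of all genes were called, and -1.29 (SE 0.08, adjusted p = 9.2e-09) with mutant Gars, where 0.494% were. The difference of these changes was -0.08 (95% interval -0.34 to 0.19). With mutant Gars, 70.0% of Eif2ak4 RNA was left at 1 copy and 40.6% at 0 copies, and with wild-type Gars 72.7% and 43.6%. The shares left were 68.9% and 39.1% in males and 74.6% and 44.7% in females, a description with no test of the difference.

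Per transcript length the same order held. Eif2ak4 stood at 11.54 ± 1.26 TPM in Gcn2+/+, 8.46 ± 0.78 in Gcn2+/- and 5.12 ± 0.61 in Gcn2-/- mice (SD, n = 8 each). Eif2ak4 counts, between 229 and 982 per library, lay within 0.005 of a whole number in all 24 libraries, and no annotated gene overlaps it.

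The mean transcript length that RSEM reported for Eif2ak4, which moves when the mix of its 8 annotated transcripts moves, averaged 5072 ± 149 bases in Gcn2+/+, 4922 ± 289 in Gcn2+/- and 4739 ± 335 in Gcn2-/- mice (SD, n = 8 each). Gcn2+/+ libraries ran from 4739 to 5184 bases with a median of 5138, Gcn2+/- libraries from 4240 to 5091 with a median of 5050, and Gcn2-/- libraries from 4298 to 5204 with a median of 4714. The genotypes overlapped throughout, and the Gcn2-/- libraries covered nearly the whole range. The exact two-sided permutation test gave p = 0.024 for the difference of -332.2 bases between the Gcn2-/- and Gcn2+/+ means and p = 0.22 for Gcn2+/-. In a limma fit over 10996 genes the log2 difference for Gcn2-/- was -0.09 (95% interval -0.18 to 0.00, adjusted p = 1), with 0.0637% of all genes called, so the length of Eif2ak4 was not called to differ. With few reads per library the estimate is imprecise, and which exons the remaining reads cover was not analysed here.

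Eif2ak1 (HRI) was the kinase with the most RNA per length, and its level did not follow Gcn2. It lies at chr5:143817788-143904251 on the plus strand. The 8 Gcn2+/+ libraries ran from 87.99 to 99.36 CPM with a median of 92.82, the Gcn2+/- libraries from 86.96 to 101.5 with a median of 93.81, and the Gcn2-/- libraries from 79.21 to 105.7 with a median of 97.82. The 3 ranges overlapped, and the Gcn2-/- range enclosed the others. The log2 difference between Gcn2-/- and Gcn2+/+ was 0.03 (95% interval -0.06 to 0.11), and between Gcn2+/- and Gcn2+/+ 0.01 (-0.07 to 0.10). Aimp2 and Ankrd61 overlap the gene on the other strand. Its expected counts lay more than 0.005 from a whole number in all 24 libraries, as did those of Eif2ak2 and Gcn1l1. This happens where RSEM shares reads out, and with which genes reads were shared was not tested.

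Eif2ak2 (PKR), at chr17:78852564-78882573 on the minus strand, was the lowest and most variable of the other kinases. Gcn2+/+ libraries ran from 14.58 to 19.65 CPM with a median of 17.31, Gcn2+/- libraries from 13.01 to 20.58 with a median of 16.56, and Gcn2-/- libraries from 13.44 to 17.58 with a median of 15.49. The ranges overlapped, and the means were 17.38, 16.57 and 15.57 CPM in that order. The log2 difference between Gcn2-/- and Gcn2+/+ was -0.15 (95% interval -0.36 to 0.06, adjusted p = 0.93) over both Gars genotypes and -0.23 (-0.51 to 0.06) with mutant Gars. Of 20 interferon-regulated genes listed beside it, 0 were called in Gcn2-/- mice, 19 had values below 0 and the median log2 fold change was -0.32, against 0.00 over all genes. In that list Ifit3 measured -0.80 and Bst2 -0.76, with adjusted p of 0.62 and 0.52. The highest mean log2 CPM of that list among Gcn2+/+ libraries, 2.62, was in a library that also held the highest Schwann cell signal. Marker lists of cell types went both ways in the same comparison. Below 0 lay 8 of 8 microglial genes (median -0.21), 8 of 8 meningeal and fibroblast genes (-1.47) and 8 of 9 Schwann cell and nerve root genes (-1.35). So did 6 of 7 astrocyte, 6 of 7 oligodendrocyte and 4 of 6 endothelial genes. Above 0 lay 10 of 10 neuronal genes (median 0.03), 6 of 8 motor neuron genes (0.15) and 6 of 6 marrow and neutrophil genes (0.47). Of all these lists only Nefh, a motor neuron gene, was called, at 0.23 (adjusted p = 0.025), where 0.62% of all genes were called. The part of these cell types in the values of Eif2ak2 and the interferon list was not tested.

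Eif2ak3 (PERK), at chr6:70844515-70905245 on the plus strand, had nearly the same mean in every Gcn2 genotype. The means were 37.09 ± 1.82 CPM in Gcn2+/+, 37.14 ± 3.01 in Gcn2+/- and 37.18 ± 2.64 in Gcn2-/- mice (SD, n = 8 each). Libraries ran from 34.47 to 40.42 CPM, 32.14 to 41.43 and 32.39 to 40.32 in the same order, so they overlapped almost fully. The log2 difference between Gcn2-/- and Gcn2+/+ was 0.00 (95% interval -0.10 to 0.11).

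The regulators of GCN2 kept their levels as well. Gcn1l1, at chr5:115565254-115622654 on the plus strand, measured 104.6 ± 4.42 CPM in Gcn2+/+, 103.2 ± 3.92 in Gcn2+/- and 101.5 ± 4.96 in Gcn2-/- mice, with libraries from 93.65 to 110.5 in all. The Gcn2-/- difference was -0.06 on the log2 scale (95% interval -0.13 to 0.02), the smallest p of these 5 genes at an unadjusted 0.12. Impact measured 368.0 ± 31.8, 387.0 ± 23.5 and 374.4 ± 24.9 CPM in the same order, with libraries from 328.9 to 428.2. Its Gcn2-/- difference was 0.03 (95% interval -0.08 to 0.13) and its Gcn2+/- difference 0.07 (-0.03 to 0.18). Both genes overlapped between all Gcn2 genotypes.

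**Figure D2:**
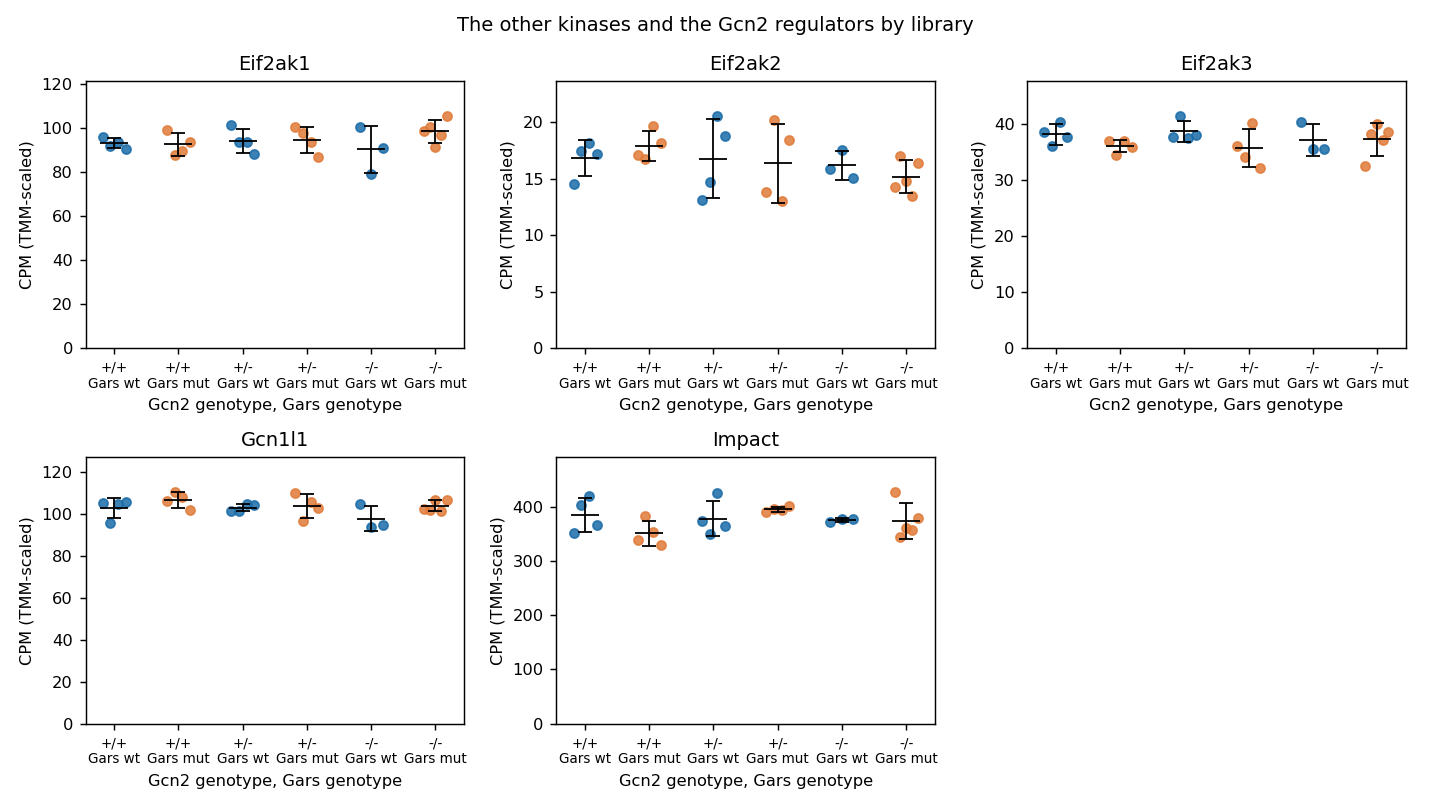
CPM of the 5 other genes in each library, by Gcn2 and Gars genotype, each panel on its own linear axis from 0, with mean ± SD (n = 3 to 5). In each panel the Gcn2 genotypes overlap, and Eif2ak2 is widest in Gcn2+/- mice, from 13.01 to 20.58.

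Of the 5 genes, 0 were called in edgeR in any of the 3 Gcn2 comparisons, nor at an unadjusted p below 0.05, a mark that 6.55%, 3.75% and 4.17% of all genes reached. DESeq2's Wald test also called 0. The intervals bound what could have been missed. For Gcn2-/- against Gcn2+/+ over both Gars genotypes, the highest upper bound was a 1.10-fold rise, for Impact, and the lowest lower bound was 0.780-fold, for Eif2ak2. No rise above 1.10-fold in the RNA of any other kinase or of the 2 regulators thus lay within the 95% intervals of that comparison. In smaller groups the bounds were wider. The highest upper bound was 1.195-fold with wild-type Gars alone, for Eif2ak2, 1.17-fold with mutant Gars alone, for Impact, and 1.13-fold for Gcn2+/- against Gcn2+/+, also for Impact. In bulk tissue, fewer cells of a type and less RNA per cell cannot be told apart, and a rise confined to few cells could be hidden in these values.

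**Figure D3:**
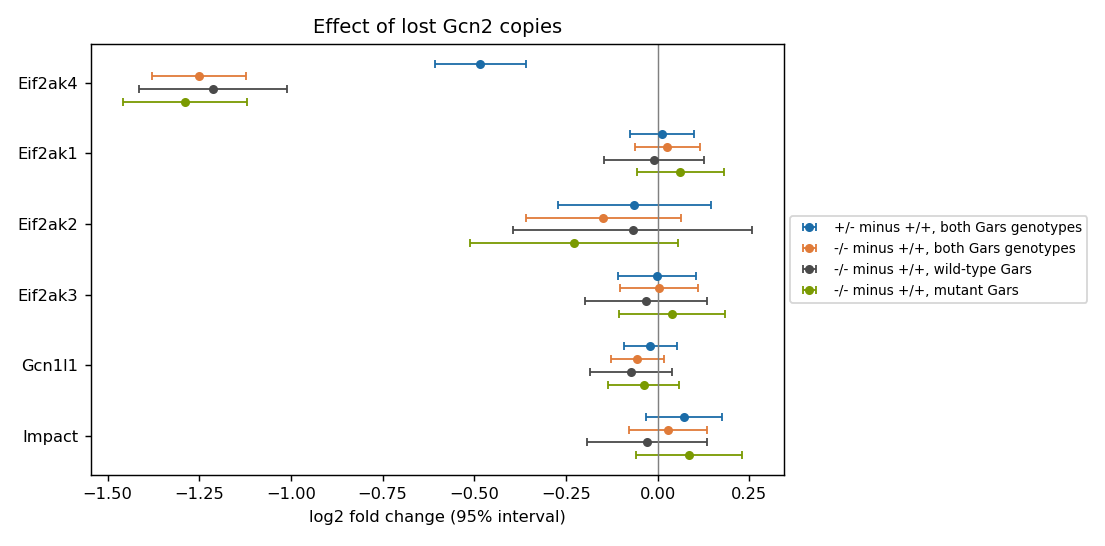
Log2 fold changes of the 6 genes for lost Gcn2 copies, from the fit of all 24 libraries, with 95% intervals as bars. The 4 values of Eif2ak4 lie between -1.29 and -0.48, and all intervals of the 5 other genes include 0.

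Counted per transcript length, the kinases together lost RNA with the Gcn2 copies by about what Eif2ak4 lost. In Gcn2+/+ mice (n = 8) the order by TPM was Impact at 202.9 ± 15.5, Eif2ak1 at 40.19 ± 2.25, Gcn1l1 at 26.38 ± 1.55, Eif2ak3 at 15.97 ± 0.79, Eif2ak4 at 11.54 ± 1.26 and Eif2ak2 at 8.51 ± 0.89. Of these neighbours only Eif2ak4 and Eif2ak2 overlapped, with libraries from 9.99 to 13.48 TPM and from 7.41 to 10.10 TPM. In Gcn2-/- mice the order of that pair was turned, at 4.03 to 6.02 TPM for Eif2ak4 and 6.75 to 9.08 TPM for Eif2ak2, with no overlap. The summed TPM of the 4 kinases was 76.21 ± 3.71, 73.01 ± 2.64 and 69.79 ± 4.99 in Gcn2+/+, Gcn2+/- and Gcn2-/- mice. The other 3 kinases summed to 64.67 ± 2.77, 64.55 ± 2.48 and 64.67 ± 5.37 TPM. The share of Eif2ak4 in the 4 was 15.1%, 11.6% and 7.40%.

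**Figure D4:**
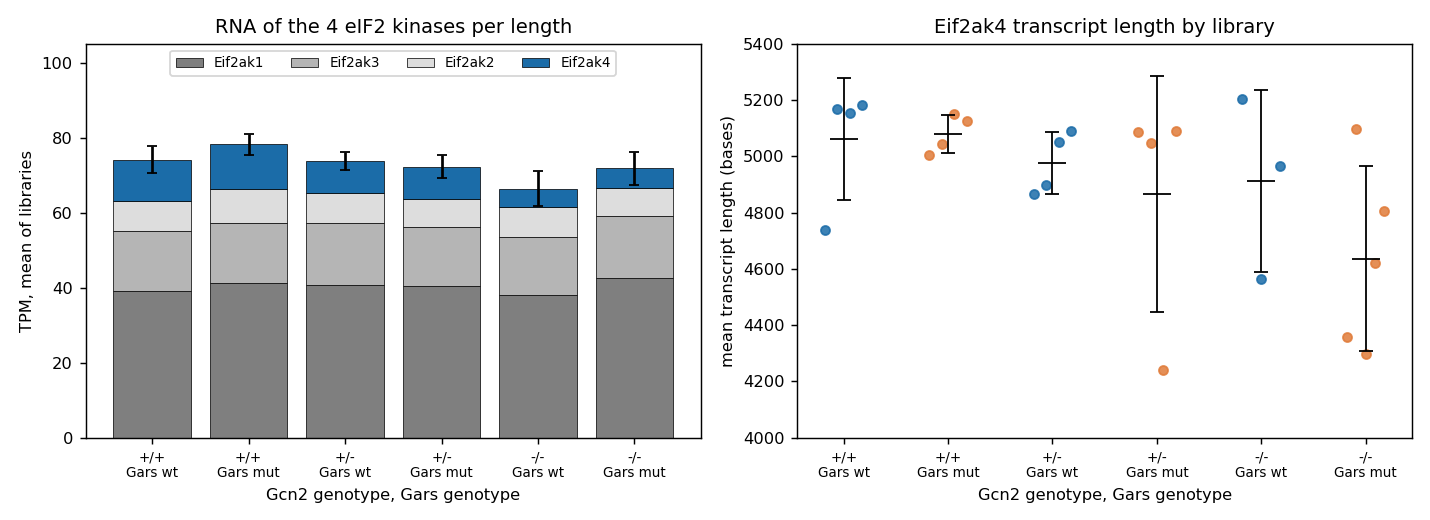
Left, mean TPM of the 4 kinases stacked per group, with the SD of their sum as bars (n = 3 to 5). Right, the mean transcript length of Eif2ak4 in each library in bases, on an axis that does not start at 0, with mean ± SD. The Eif2ak4 share shrinks from 15.1% in Gcn2+/+ to 7.40% in Gcn2-/- mice, and the lengths of the genotypes overlap.

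The P278KY change in Gars did not move the RNA of any of the 6 genes past the test. In Gcn2+/+ mice 0.632% of all genes were called for mutant against wild-type Gars, and 0 of these 6. Impact had the lowest p there, at 351.3, 402.7, 420.4 and 365.7 CPM with wild-type and 338.3, 382.7, 353.5 and 328.9 CPM with mutant Gars. These groups overlapped, and the log2 difference was -0.12 (95% interval -0.28 to 0.03, adjusted p = 0.40). Eif2ak4 itself changed by 0.02 (-0.16 to 0.20). In Gcn2+/- mice, where 0.178% of all genes were called, Eif2ak3 had the lowest p of the 6. It measured 37.66, 41.43, 37.47 and 38.00 CPM with wild-type Gars and 36.13, 34.14, 40.14 and 32.14 with mutant Gars, overlapping through 1 library, with a log2 difference of -0.11 (-0.26 to 0.04). In Gcn2-/- mice 0.0115% of all genes were called and 0 of the 6. Gcn1l1 had the lowest p there, at 104.5, 93.65 and 94.62 CPM with wild-type and 102.4, 101.9, 106.6, 101.2 and 106.7 CPM with mutant Gars, groups that overlapped through 1 library, with a log2 difference of 0.09 (-0.02 to 0.19). Eif2ak1 showed 0.11 (-0.02 to 0.23) in the same mice. The difference of the Gars effect between Gcn2-/- and Gcn2+/+ mice was called in 0.0115% of all genes and in 0 of the 6, with the widest interval for Eif2ak2, from -0.60 to 0.28. At an unadjusted p below 0.05 in edgeR there were likewise 0 of the 6 in these 4 comparisons. That mark was reached by 17.3%, 14.7%, 4.35% and 4.93% of all genes, in the order given.

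**Figure D5:**
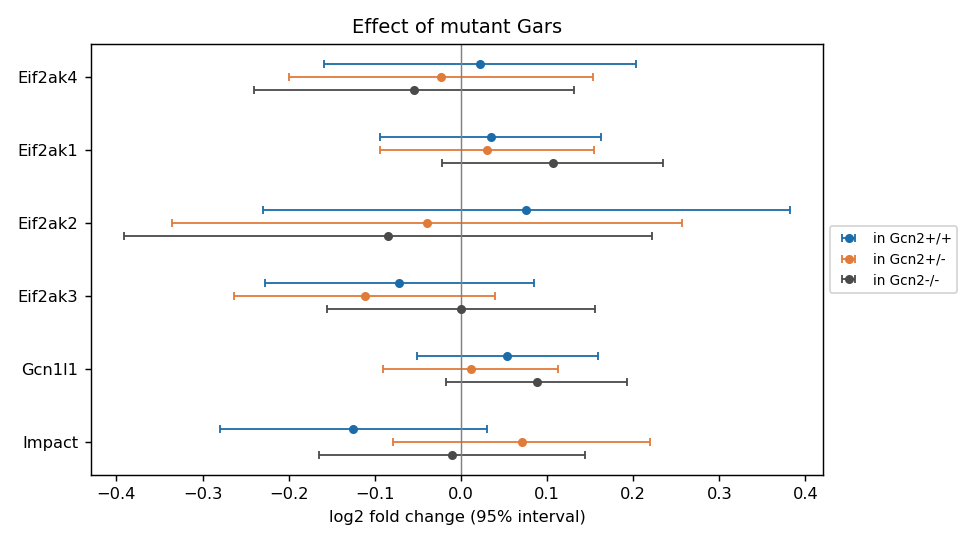
Log2 fold changes of the 6 genes for mutant against wild-type Gars within each Gcn2 genotype, with 95% intervals as bars. All intervals include 0, and the widest belong to Eif2ak2.

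Other genes of the pathway were taken from lists written from general knowledge. Of 11 regulators of GCN2, which include Gcn1l1 and Impact and also the ribosomal stalk proteins, the ABCF proteins, the stress kinase gene Map3k20 and the HSP90 genes, 0 were called in any of the 9 comparisons. In Gcn2-/- mice over both Gars genotypes their median log2 fold change was 0.02, against 0.00 over all genes. The lowest p belonged to Map3k20 at 0.19 (unadjusted p = 0.054, adjusted p = 0.78). In the same comparison with mutant Gars alone, 7 of the 11 lay above 0 and 4 below, with a median of 0.05. The lowest p there belonged to Hsp90aa1 at 0.21 (adjusted p = 0.34). Of 9 tested regulators of the other kinases 0 were called in any comparison either. The share of all genes called in these comparisons ran from 0.00574% to 0.632%. Hspa5, the chaperone that holds PERK inactive, measured 0.30 (adjusted p = 0.90) and Hsph1 0.16 (adjusted p = 0.91) in Gcn2-/- mice. The 10 genes of eIF2 and its exchange factor eIF2B and the 5 genes of the eIF2alpha phosphatases likewise had 0 called in each comparison. Over both Gars genotypes, Eif2b5, a catalytic subunit of eIF2B, measured 0.05 and Ppp1ca, a catalytic subunit of protein phosphatase 1, -0.05 in Gcn2-/- mice.

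Among 28 targets of ATF4 and the integrated stress response, 0 rose and 2 fell in Gcn2-/- mice over both Gars genotypes, where 0.62% of all genes were called, with a list median of -0.13. These were Trib3, an ATF4-induced pseudokinase, at -1.48 (SE 0.28, adjusted p = 0.01) and Chac1, which degrades glutathione, at -0.45 (SE 0.10, adjusted p = 0.035). Both lie on chromosome 2, Chac1 0.876 Mb and Trib3 33.86 Mb from Eif2ak4. Without the 5 libraries of high Schwann cell signal the log2 fold changes were -1.30 for Trib3 and -0.48 for Chac1, with adjusted p of 0.061 and 0.14 in edgeR. There 0 of the 28 were called, and 58 of 17434 genes. With mutant Gars, 5 of the 28 fell in Gcn2-/- relative to Gcn2+/+ mice, where 0.494% of all genes were called. Without those libraries 3 fell, where 31 of 17434 genes were called. With wild-type Gars 0 of the 28 were called, against 0.0287% of all genes. For mutant against wild-type Gars, 6 rose in Gcn2+/+ mice, among them Sesn2 at 0.63 (adjusted p = 0.001) and Atf4 at 0.44 (adjusted p = 0.0019), where 0.632% of all genes were called. Without the 5 libraries 4 rose there, with 36 of 17434 genes called, and the list median went from 0.41 to 0.27. In Gcn2+/- mice 2 rose, with 0.178% of all genes called, or 1 without those libraries, with 4 of 17434 genes called. In Gcn2-/- mice 0 of the 28 were called, with 0.0115% of all genes. The difference of the Gars effect between Gcn2-/- and Gcn2+/+ mice was called for 0 of the 28, against 0.0115% of all genes.

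The genes whose log2 CPM followed Eif2ak4 most closely over the 24 libraries lay on its own chromosome, 2. The 5 highest correlations belonged to Pla2g4e (r = 0.968), Gm13328 (0.925), Ganc (0.889), Galk2 (0.885) and Itpa-ps1 (0.809). Pla2g4e, a phospholipase A2 gene 1.691 Mb away, fell from 37.21 ± 7.88 CPM in Gcn2+/+ to 22.61 ± 2.46 in Gcn2+/- and 5.63 ± 0.88 in Gcn2-/- mice, a steeper course than that of Eif2ak4. Ganc, a glucosidase gene 1.929 Mb away, went from 32.50 to 27.53 and 20.39 CPM, and Galk2, a kinase gene of sugar metabolism 7.384 Mb away, from 21.03 to 19.05 and 16.39 CPM. The 24 libraries share genotype groups, so these correlations describe the groups as much as the genes, and sequence linked to the targeted allele and the loss of Gcn2 cannot be told apart here.

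For the other 5 genes the closest correlations were weaker. They were 0.838 for Eif2ak1 (with 1500011B03Rik), 0.829 for Eif2ak2 (with Gabpb2), 0.794 for Eif2ak3 (with Zswim4), 0.821 for Gcn1l1 (with Farp1) and 0.775 for Impact (with Ythdf2), over the same 24 libraries. The 3 genes closest to Eif2ak1, which also include Rpl6 and Psmd9, all lie on chromosome 5, as Eif2ak1 does. Between the 6 genes themselves r ran from -0.350, for Eif2ak1 with Eif2ak2, to 0.310, for Eif2ak4 with Eif2ak2.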

How the data were processed

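RNA of whole spinal cord from 24 mice (13 male, 11 female) was sequenced as 75 bp read pairs from stranded poly(A) libraries, per the labels' protocols. The authors deposited expected counts, TPM and a mean and an effective transcript length per gene (other values, in bases), for which the submitters' processing notes name Bowtie2 2.2.0 and RSEM 1.2.12. Their annotation and genome build were not given in the sources used here. Symbols and positions come from GENCODE M21 (GRCm38), which held 37607 of 38924 gene IDs. The rest carried 0.261% of counts.

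Expected counts were rounded, filtered with filterByExpr and TMM-scaled. One edgeR 4.0.16 quasi-likelihood fit (R 4.3.3) held 24 libraries, 6 genotype groups and sex, with robust dispersions, and was tested on simulated counts. Lengths were tested with limma 3.58.1 on the log2 scale over tested genes with 2 or more transcripts whose length varied between libraries. For Eif2ak4 an exact permutation test was added. A mean CPM of at least 1 was required only in an alternative length fit. Intervals are 95%. Log2 CPM used a prior count of 0.5.

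The members, gene lists and tests were chosen with earlier results of these data known. The 6 genes are named throughout. Of each list up to 4 called genes, or if none the 2 with the smallest p, are open to naming, and by likeness 5 genes for Eif2ak4 (and 5 beyond 20 Mb of it) and 3 for each other gene. Motifs were exact letter matches.

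Alternatives were DESeq2's size factors, DESeq2 1.42.0, no filter, no sex term, title numbers, fewer groups, each library left out and 2 settings for Schwann cell genes. Library totals of 19.7 to 32.4 M gave Eif2ak4 229 to 982 counts.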

Additional observations from a re-analysis of the deposited data

Results flagged for a closer look

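In groups of 4 or 5 libraries, 55 sets of values of the 6 genes were screened for a library far from the others of its group, and 5 stood apart. Chance alone flags about 1 in 20 groups. Eif2ak3 measured 41.43 CPM in replicate 2 of the Gcn2+/- mice with wild-type Gars, where the other 3 ran from 37.47 to 38.00. Gcn1l1 measured 95.68 CPM in replicate 2 of the Gcn2+/+ mice with wild-type Gars, where the others ran from 104.5 to 105.6. The mean transcript length of Eif2ak4 was 4739 bases in replicate 1 of that same genotype, against 5155 to 5184 in the others, and 4240 bases in replicate 3 of the Gcn2+/- mice with mutant Gars, against 5048 to 5091. The mean transcript length of Eif2ak2 was 4071 bases in replicate 1 of the Gcn2+/+ mice with mutant Gars, against 3682 to 3735. No CPM value of Eif2ak4 stood apart in its group.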

How the results depend on the processing

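The fall of Eif2ak4 was called in every alternative for 4 of the 5 Gcn2 comparisons. For Gcn2+/- against Gcn2+/+ it was called in all but 1, where leaving out the 5 libraries with high Schwann cell genes gave -0.4932 with fewer samples. Both settings for Schwann cell genes and the block for length were chosen after seeing the data. Over alternatives its adjusted p reached at most 3.58e-07 for Gcn2-/- against Gcn2+/+, 0.0187 with wild-type Gars alone and 0.000204 with mutant Gars alone. The shares of its RNA left ranged from 71.01% to 73.24% at 1 copy and from 40.5% to 44.35% at 0 copies over TPM, plain CPM and the earlier and later title numbers. The 5 other genes were called in 0 of 1505 alternatives, and 83 changed the sign of an uncalled value.

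Counts of all genes called moved more. For Gcn2-/- against Gcn2+/+ (108) they were 58 without the 5 libraries, 67 with a Schwann score as covariate and 204 with DESeq2. For Gcn2+/- against Gcn2+/+ (1) they were 0 without the 5 libraries, 7 with DESeq2 and 11 with the title number as a replicate block, and for Gcn2-/- against Gcn2+/- (6) 47 with DESeq2. With wild-type Gars (5) the block gave 8, the groups alone 12 and DESeq2 38, and with mutant Gars (86) the groups alone gave 21, no high-Schwann libraries 31, the covariate 35 and DESeq2 249. For the Gars effect in Gcn2+/+ (110) they were 72 without the filter, 201 without sex, 57 with the 4 genotypes, 11 with the groups alone, 36 without the 5 libraries, 39 with the covariate and 658 with DESeq2. In Gcn2-/- (2) the block, the 2 title sets, the 4 genotypes, the groups alone and leaving out the 5 libraries each gave 1 and DESeq2 26, and in Gcn2+/- (31) the block gave 4, the groups alone 5, leaving out the 5 libraries 4, the covariate 17 and DESeq2 186. For the difference of the Gars effects (2) no sex term gave 8, the block 0, the title sets 1, no high-Schwann libraries 1 and DESeq2 35. The block gave 2 of 7 for length. The causes were not tested.

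Leaving out 1 library at a time gave 68 to 117, 1 to 4, 4 to 10, 3 to 10, 47 to 110, 47 to 600, 1 to 3, 18 to 66 and 0 to 6 calls in the order above, and 0 to 13 for length. The 47 and 600 calls of the Gars effect in Gcn2+/+ mice came without replicates 3 and 1 of the Gcn2+/+ mice with wild-type Gars, and the 66 in Gcn2+/- mice without replicate 1 of those with mutant Gars. Eif2ak4 ranged from -1.284 to -1.19, from -0.5042 to -0.4552 and from -0.7982 to -0.7014 in the first 3 of these, and from -1.279 to -1.081 and -1.327 to -1.234 with wild-type and mutant Gars.

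The labels do not say that title numbers pair mice. Residuals of libraries with the same number in other groups correlated by 0.212 on average over 32 pairs, of which 25 exceeded 0.1 and the lowest was -0.119, against -0.0327 for other numbers. The block changed no call of the 6 genes.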

Other observations

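Beyond 20 Mb of Eif2ak4, the 5 genes that followed it most closely were Gm13328 (r = 0.925), Itpa-ps1 (0.809), Pcna-ps2 (0.808), Eif3j2 (0.798) and Gm27219 (0.794). Of these, Itpa-ps1, Pcna-ps2 and Eif3j2 are by name a pseudogene of Itpa, a pseudogene of Pcna and a paralog of Eif3j1. The latter 3 genes lie on chromosome 2, and their values were looked up after those of the copies were seen. Itpa-ps1 measured 6.89 ± 1.62 CPM in Gcn2+/+, 4.43 ± 0.88 in Gcn2+/- and 0.535 ± 1.42 in Gcn2-/- mice (SD, n = 8 each), while Itpa, 12.19 Mb from Eif2ak4, measured 17.32 ± 1.83, 20.24 ± 1.53 and 23.78 ± 2.40. Their sum was 24.21, 24.68 and 24.32 CPM. Pcna-ps2 measured 13.72, 8.21 and 1.21 CPM, and Pcna, 13.77 Mb away, 23.67, 29.66 and 39.56, with sums of 37.39, 37.87 and 40.76. Eif3j2 measured 29.22, 22.26 and 14.97 CPM and Eif3j1, 3.553 Mb away, 42.43, 46.74 and 56.27, with sums of 71.65, 69.00 and 71.24. In these pairs the mean of the copy was lower and that of Itpa, Pcna or Eif3j1 higher with fewer intact Gcn2 copies. The means of the sums differed less between the Gcn2 genotypes. Between libraries, however, the sum of Eif3j2 and Eif3j1 was spread more widely than either gene. Its SDs were 7.18, 7.819 and 7.584 CPM, against 5.75, 4.425 and 4.0 for Eif3j2 and 3.911, 4.315 and 4.602 for Eif3j1. How the reads of such pairs were shared out was not tested. Eif2ak4 itself had counts within 0.005 of a whole number in all 24 libraries.

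Library titles open with a number whose meaning is not stated, and Eif2ak2 was compared between the earlier and later numbers after its values were seen. In the 12 libraries with the earlier numbers it measured 17.73 ± 1.92 CPM and in the 12 with the later numbers 15.29 ± 1.88. Within Gcn2+/- mice the 4 earlier libraries ran from 18.40 to 20.58 and the 4 later from 13.01 to 14.72, with no overlap, as was found for 5.64% of all genes. Within Gcn2+/+ mice they ran from 17.12 to 19.65 (n = 3) and from 14.58 to 18.14 (n = 5), and within Gcn2-/- mice from 14.82 to 17.58 (n = 5) and from 13.44 to 16.99 (n = 3), overlapping in both. Gcn2-/- libraries lean to the earlier numbers and Gcn2+/+ libraries to the later. With wild-type Gars, 3 Gcn2-/- libraries had earlier and 0 had later numbers, against 1 and 3 in Gcn2+/+ mice. With mutant Gars the split was 2 and 3 in Gcn2-/- and 2 and 2 in Gcn2+/+ mice. Comparisons that use the Gcn2-/- mice with wild-type Gars are thus partly confounded with title number. Within the earlier numbers the Gcn2-/- mean of Eif2ak2 was 87.2% of the Gcn2+/+ mean, and within the later numbers 88.7%. The Gcn2+/- mean was 106.4% of the Gcn2+/+ mean within the earlier numbers and 81.3% within the later.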
